A study of Mus musculus with 18 samples.

Results

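The cytoplasmic ribosomal protein genes of the mouse were followed through the repair of the carotid artery after wire injury. They were chosen by name and summed counts, with earlier results of these data known. The rule took rows of the deposited count table whose symbol starts with Rpl or Rps followed by a number (with a or x at its end where present), or is Rplp0, Rplp1, Rplp2 or Rpsa. Their counts over all libraries also had to come to 180 or more. Of 35655 genes in the table, 76 had such a symbol and 75 reached the minimum, while Rpl10 stayed out with 60 counts. The 75 genes were 30 of the small subunit, Rpsa among them, 42 of the large subunit and the 3 genes of the P stalk. All 75 passed the filter on low counts and were among the 10312 genes tested.

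RNA of 18 libraries was read at the 3′ ends of transcripts by MACE-seq, which counts fragments next to the poly(A) tail, so the values are not divided by transcript length. The mice were WT animals of the strain C57/BL6, male and 11 weeks old at surgery, and the left carotid was injured with a wire while the right one was the control. Day 0, labelled as pre-injury, had 4 libraries, and days 7, 14, 21 and 28 after injury had 4, 3, 4 and 3. Each library came from up to 70 laser-dissected carotid sections with the outer elastic lamina and the neointima, a mixture of cell types. The study calls these samples pooled, without saying over how many animals. In such a mixture, fewer cells of a type and less RNA per cell cannot be told apart. The labels give each library a mouse number, 3 of which occur on both day 0 and day 21. Whether the day 0 vessels came from operated animals is not given in the sources used here.

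A ribosome is built from ribosomal RNA and many different proteins, nearly all of them needed in equal numbers. The small subunit decodes the messenger RNA, the large subunit joins amino acids in the peptidyl transferase centre and passes the chain out through a tunnel, and the P stalk of the large subunit recruits the elongation factors. Transcripts of these genes typically start with a C followed by a run of C and T letters, the terminal oligopyrimidine tract, through which the kinase complex mTORC1 and the protein Larp1 hold back or release their translation. In an artery, injury turns quiescent contractile smooth muscle cells into growing and dividing ones and draws in leukocytes, and growing cells are known for a high demand for ribosomes.

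The start of the transcript is what these genes are best known to share, and it is shown for members whose values are described later. Of these, 6 have a run of at least 8 C/T letters and 3 do not. Rps21, among the 3, has a run of 7 across the start site, with 5 C/T letters from the start site on. Each line holds 30 bases of RefSeq sequence, 10 before the annotated start site and 20 from it on, with the longest run of C and T letters in capitals, and its position on GRCm39. The sequences come from RefSeq's table for GRCm38.p6 and were placed on GRCm39 by an exact match.
Rps6 (chr4:86775585-86775614, minus strand): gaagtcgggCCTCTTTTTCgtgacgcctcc
Rps15a (chr7:117715351-117715380, minus strand): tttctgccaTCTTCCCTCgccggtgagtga
Rps18 (chr17:34174620-34174649, minus strand): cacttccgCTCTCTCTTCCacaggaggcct
Rps27 (chr3:90120936-90120965, minus strand): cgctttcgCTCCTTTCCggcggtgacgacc
Rplp2 (chr7:141027554-141027583, plus strand): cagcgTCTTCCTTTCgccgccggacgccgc
Rpl14 (chr9:120400573-120400602, plus strand): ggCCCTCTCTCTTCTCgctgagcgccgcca
Rpsa (chr9:119956822-119956851, plus strand): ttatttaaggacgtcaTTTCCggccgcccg
Rplp0 (chr5:115697516-115697545, plus strand): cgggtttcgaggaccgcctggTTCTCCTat
Rps21 (chr2:179899162-179899191, plus strand): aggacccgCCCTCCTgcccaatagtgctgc

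Such windows were at hand for 55 of the 75 genes. A run of at least 8 C/T letters in the 30 bases was present in 23 of them (41.8%), against 13.0% of the 27025 genes with a window. At least 5 C/T letters from the annotated start site on were present in 16 (29.1%), against 5.28% of all. The letters CCGGAAG, the core bound by ETS factors, were found on either strand of the 300 bases from 250 before the start to 50 after it in 23 (41.8%, against 9.93%), and ATGGCGG, a core bound by Yy1, in 9 (16.4%, against 4.69%). TATAA, as in a TATA box, was found in 15 (27.3%, against 28.0%). The reverse complement of CCGGAAG is CTTCCGG, so a match on the other strand can overlap a C/T run. These matches are a description of the annotated sequence, and annotated start sites can lie some bases away from the used ones.

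Libraries held 440675 to 878310.0 counts in all, and the 75 genes held 32508 to 90708 of them. Values are CPM, counts per 1000000 of a library's counts after TMM scaling of its size, and errors over libraries are SD. The standard error of a log2 fold change had a median of 0.19 over the 75 genes on day 7 against day 0, compared with 0.53 over all genes tested. Macrophage markers (14 genes) summed to 136 to 575, 5734 to 8271, 1553 to 3671, 2297 to 3952 and 995 to 1349 CPM in the libraries of days 0, 7, 14, 21 and 28. Contractile smooth muscle markers (9 genes) summed to 33440.4 to 38944, 1675 to 7283, 7693 to 24099.5, 8743 to 22487 and 21223 to 29536, fibroblast markers (9 genes) to 5254 to 9405, 10643 to 15221, 18992 to 31056, 23435 to 45627 and 7348 to 9607, and proliferation markers (8 genes) to 55 to 110.3, 319.7 to 676, 109 to 226, 104 to 167 and 67.1 to 96.2 CPM. On day 7 against day 0, 14 of 14 macrophage, 8 of 8 proliferation, and 4 of 5 erythroid markers were called higher and 0 lower, and all 8 contractile markers tested were called lower. Of 8 endothelial markers 3 were called higher and 1 lower, and of 9 fibroblast markers 4 higher and 2 lower. On day 21 against day 0, 5 of the 9 fibroblast markers were called higher and 0 lower. A summed CPM mostly follows the most abundant genes of its list, so these sums do not measure numbers of cells. On day 7 all 14 macrophage markers were above 0 in every library, and on day 0 between 1 and 4 of them were at 0. These lists moved with the days beside every result given next, and their part in those results was not tested.

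Over the course, the 75 genes together stood highest on day 7 and lowest on day 21. On day 0 their summed CPM was 92364, 100039, 98244 and 89133 in the 4 libraries, on day 7 125946, 120581, 122033 and 139529, and on day 14 89817, 89231 and 118351. On day 21 it was 69334, 76259, 65598 and 75639, and on day 28 88549, 81927 and 79276. Every day 7 library lay above every library of the other days, and every day 21 library lay below all of them. On day 14 replicates 1 and 2 lay within the day 0 range, while replicate 3 stood apart, close to the day 7 libraries. Of all counts in a library, the genes held 9.17 ± 0.47%, 12.6 ± 0.229% and 6.98 ± 0.652% on days 0, 7 and 21 (SD, n = 4 each).

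**Figure D1:**
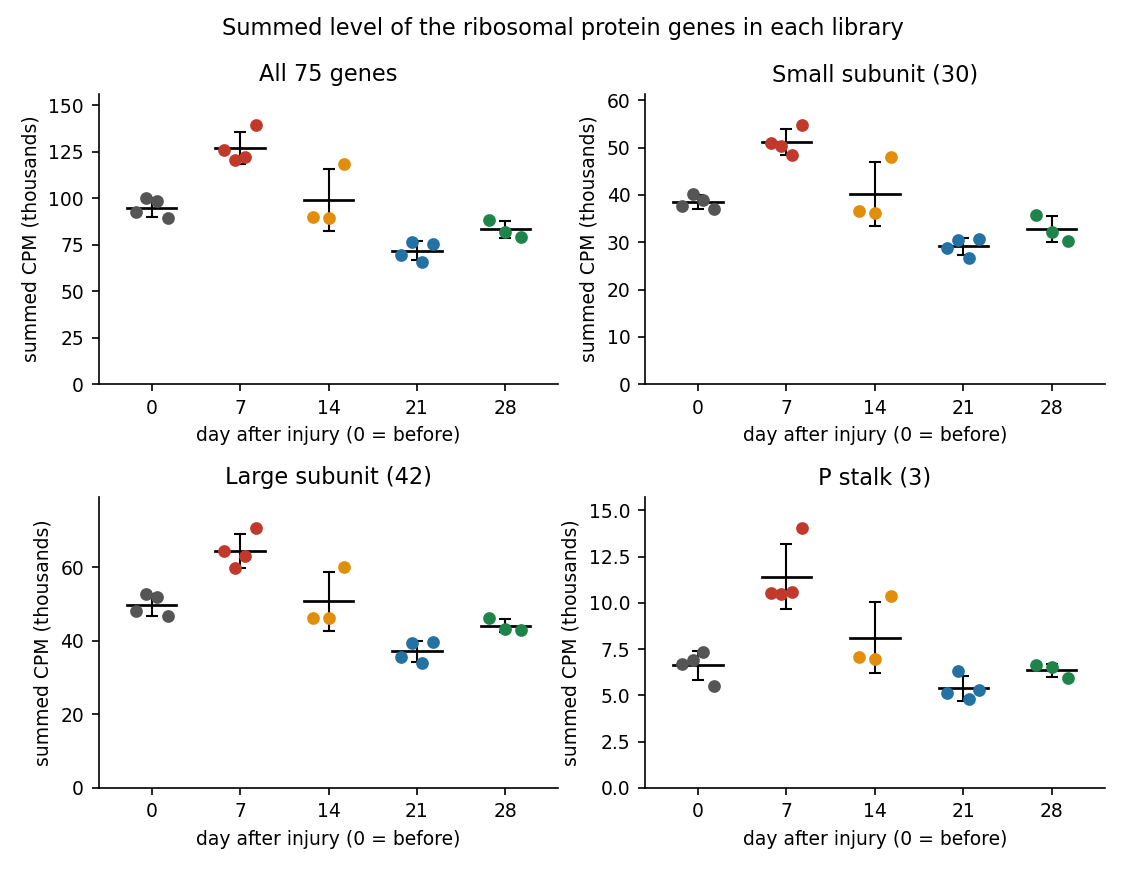
Summed CPM, on axes in units of 1000, of the 75 genes, and of the small subunit, large subunit and P stalk genes separately, in each library by day after injury. Points are libraries, lines are means and bars are SD over 4, 4, 3, 4 and 3 libraries. Day 7 libraries hold the highest sums of the 75 genes and day 21 libraries the lowest, and in each panel day 14 replicate 3 lies above the other 2 of its day.

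Both subunits followed this course. The 30 small subunit genes summed to 38459 ± 1459, 51197 ± 2671 and 29148 ± 1841 CPM on days 0, 7 and 21. The 42 large subunit genes summed to 49859 ± 2996, 64401 ± 4592 and 37172 ± 2825 CPM. The ratio of large to small was between 1.26 on day 7 and 1.35 on day 28, with SDs of up to 0.0663. The P stalk genes summed to 6627 ± 795, 11424 ± 1746 and 5388 ± 666 CPM on these days, and day 7 replicate 4, at 14042 CPM, was the highest library.

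The question of each comparison was which genes differed between the stages of repair. Each log2 fold change is that of the later day over the earlier one. On day 7 against day 0, 22 of the 75 genes were called higher and 0 lower at an adjusted p under 0.05 (edgeR's quasi-likelihood test, Benjamini-Hochberg adjustment over all genes tested), where 11.3% of all genes were called higher and 8.53% lower. DESeq2 called 34 higher (11.4% of the 13142 genes that its own filter kept). Their median log2 fold change was 0.39, that of all genes was 0.07, and 70 of the 75 were above 0. In 41 genes (54.7%) every day 7 library lay above every day 0 library, as it did in 13.6% of all genes. Leaving out day 0 replicate 4 brought the count of 22 down to 12, as did leaving out day 7 replicate 1.

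Day 21 differed from day 0 in the other direction. Here 17 genes were called lower and 0 higher, where 2.93% of all genes were called lower and 5.92% higher, and the median was -0.47 against 0.07 for all genes, with 72 of 75 genes below 0. DESeq2 called 28 lower (3.12% of the 12792 genes it kept). With the mouse number as a block, 27 were called lower. In 41 genes (54.7%) every day 21 library lay below every day 0 library, as it did in 6.81% of all genes. The count of 17 became 10 in each of 3 fits, which lacked day 0 replicate 2, day 0 replicate 3 or day 21 replicate 1. The comparisons of days 7 and 21 share the day 0 libraries.

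Between day 7 and day 21, 62 of the 75 genes were called lower and 0 higher, where 3.23% of all genes were called lower and 4.03% higher, and the median was -0.83 (all genes 0.01). In 65 genes (86.7%) the libraries of both days did not overlap, as against 9.18% of all genes below in that way. On day 28 against day 7, 41 genes were called lower and 0 higher (8.05% of all genes called lower, 6.4% higher), with a median of -0.68 (all genes -0.07), and 57 genes (76.0%) did not overlap, against 14.4% of all genes. That count was 18 without day 28 replicate 3, 21 without day 28 replicate 2, 22 without day 7 replicate 1, 26 without day 7 replicate 2, and 17 when only the 2 days were fitted. Both comparisons share the day 7 libraries.

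**Figure D2:**
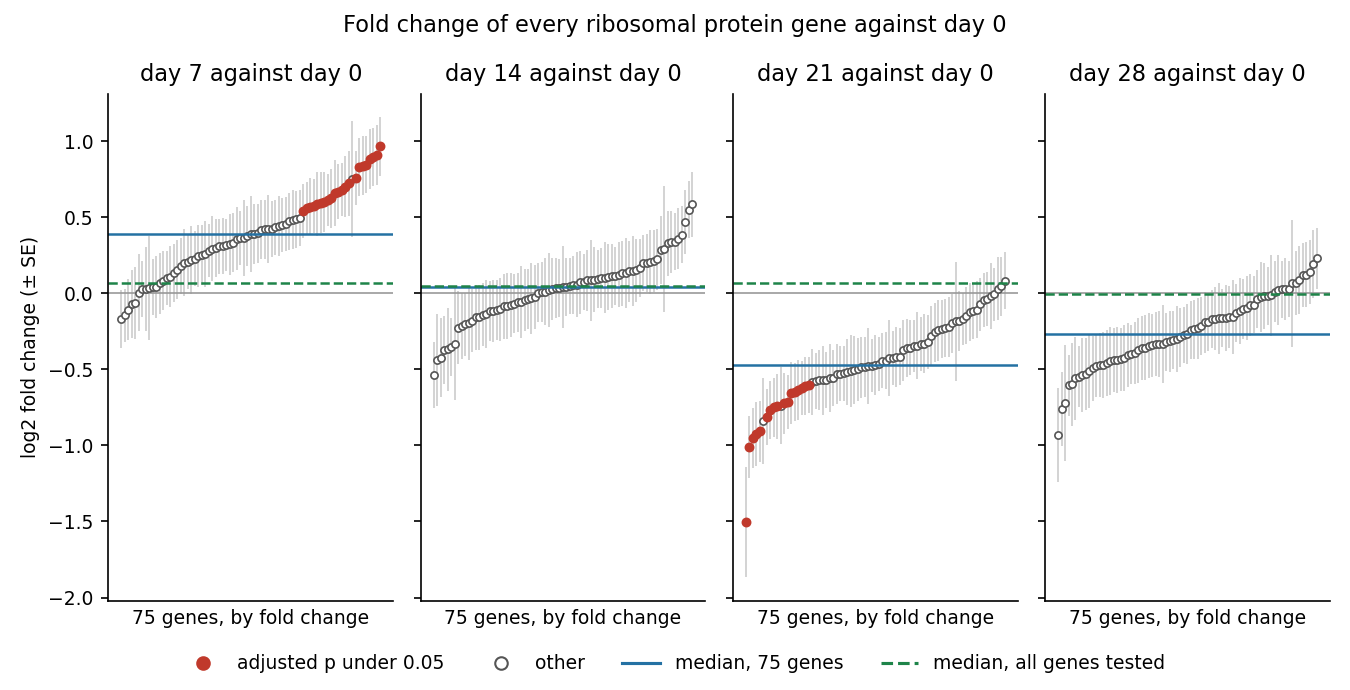
Log2 fold change with its standard error for each of the 75 genes on days 7, 14, 21 and 28 against day 0, ordered within each panel. Red points passed an adjusted p of 0.05, the solid line is the median of the 75 genes and the dashed line that of all genes tested. On day 7 the median is 0.39 with 22 genes called higher, on day 21 it is -0.47 with 17 called lower, and on days 14 and 28 no gene is called.

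Other comparisons called none of the 75 genes with edgeR. On day 14 against day 0 (4.8% of all genes called higher, 1.42% lower) 4 of the 75 had an unadjusted p under 0.05. That was a smaller share than over all genes (1770 of 10312). DESeq2 called 2 of the 75 higher (5.03% of the 12442 genes it kept). The median of the 75 was 0.04, and it was -0.13 without day 14 replicate 3. On day 28 against day 0 (0.97% higher, 0.369% lower) 14 of the 75 had an unadjusted p under 0.05, a share slightly above that of all genes (1521 of 10312). DESeq2 called 2 lower (1.05% of the 11743 genes it kept), edgeR called 2 lower without day 28 replicate 1, and the median was -0.27. On day 14 against day 7 (1.33% of all genes higher, 0.33% lower) 24 of the 75 had an unadjusted p under 0.05, beside 1100 of all 10312 genes. DESeq2 called 12 lower (2.67% of the 4051 genes it kept), and the median was -0.35, or -0.49 without day 14 replicate 3. On day 21 against day 14, where edgeR called no gene of the whole table (0.0%, with 421 genes at an unadjusted p under 0.05, and DESeq2 calling 6 higher and 11 lower), 46 of the 75 had an unadjusted p under 0.05 and DESeq2 called 7 lower (0.563% of the 1953 genes it kept), with a median of -0.49, or -0.31 without day 14 replicate 3. On day 28 against day 21 (0.107% of all genes higher, 0.572% lower) 18 of the 75 had an unadjusted p under 0.05, beside 1553 of all 10312 genes. DESeq2 called 8 higher (0.715% of the 11044 genes it kept), with a median of 0.18, and edgeR called 2 higher when day 28 replicate 1 or day 7 replicate 4 was absent and 1 when day 0 replicate 3 or day 7 replicate 3 was.

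The 3 genes of the P stalk all passed the test on day 7. Rplp0, the anchor that binds the stalk to ribosomal RNA (chr5:115694515-115701793, GRCm39), had 1477, 1546, 1180.5 and 1269 CPM on day 0, 2682, 2559, 2484 and 2538 on day 7, 1612, 1636 and 2422 on day 14, 1259.7, 991, 1102 and 1345 on day 21 and 1247, 795 and 1192 on day 28. Every day 7 library lay above all 14 others, though day 14 replicate 3 came close. The log2 fold change was 0.91 ± 0.20 (SE, adjusted p = 0.00158) on day 7 against day 0 and -1.25 ± 0.22 (SE, adjusted p = 0.000418) on day 28 against day 7. Rplp1, a partner that carries the end of the stalk (chr9:61820557-61821872), had 2887, 2923, 3109 and 2262 CPM on day 0, 4512, 4642, 4659 and 6075 on day 7 and 2503, 3267, 2067 and 2425 on day 21, with a fold change of 0.83 ± 0.19 (SE, adjusted p = 0.00244) on day 7. Its day 7 libraries, too, lay above all 14 others. Rplp2, its other partner (chr7:141027274-141034167), had 2333, 2469.8, 3073 and 1976 CPM on day 0, 3365, 3303, 3451 and 5429 on day 7 and 1376, 2083, 1629.7 and 1503 on day 21. Its day 7 libraries lay above those of day 0, replicate 4 far above the rest, and the fold change was 0.66 ± 0.22 (SE, adjusted p = 0.0326), which missed the threshold in 7 of the 18 fits lacking a library (adjusted p = 0.154 with day 7 replicate 4 absent). The 3 genes had day 21 fold changes against day 0 of -0.22, -0.12 and -0.58, none past the test.

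In the small subunit, Rpsa led the day 7 list. It lies on the back of the subunit, is also known as the precursor of the laminin receptor, and was the gene with the largest fold change of the 75 on day 7. It had 1988, 1873, 1860.2 and 1563 CPM on day 0, 2984, 3531, 4069 and 3657 on day 7, 1736, 2105 and 2462 on day 14, 1991, 2303, 1393 and 1834 on day 21 and 1644, 1930.0 and 2371 on day 28 (chr9:119956755-119962787). All day 7 libraries lay above the 14 others, which overlapped each other. The fold change was 0.97 ± 0.20 (SE, adjusted p = 0.000805) on day 7, or 1.95 times the day 0 level, and 0.05 ± 0.19 (SE, adjusted p = 0.934) on day 21 against day 0.

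Genes of the small subunit's head and body followed it. Rps19, a head protein needed to process the small subunit's RNA and mutated in Diamond-Blackfan anaemia (chr7:24583796-24589231), had 1537, 1530.2, 1464 and 1228 CPM on day 0, 2436, 2275, 2701 and 3222 on day 7 and 1102, 1598, 1113 and 1273 on day 21, and its fold change on day 7 was 0.88 ± 0.20 (SE, adjusted p = 0.00207). Day 7 libraries all lay above day 0 and day 21, which overlapped. Rps18, a head protein that touches the large subunit (chr17:34170972-34175057), had 1105, 1126, 1201 and 947 CPM on day 0, 2039, 1867, 1591 and 2346 on day 7 and 842, 755, 849 and 968 on day 21, with fold changes of 0.84 ± 0.19 (SE, adjusted p = 0.00236) on day 7 against day 0 and -1.20 ± 0.19 (SE, adjusted p = 0.000377) on day 21 against day 7. Rps15a, a protein of the subunit's body (chr7:117703595-117715454), had 795, 818, 923 and 778 CPM on day 0, 1467, 1493, 1513 and 1702 on day 7 and 686, 1027, 617 and 747 on day 21. Its day 7 libraries stood above all 14 others, and the fold change was 0.90 ± 0.19 (SE, adjusted p = 0.00117). Rps12, at the beak of the head, had day means of 1846 ± 186, 3121 ± 131 and 1796 ± 236 CPM on days 0, 7 and 21 and a fold change of 0.76 ± 0.18 (SE, adjusted p = 0.00297) on day 7. Each of these 4 day 7 calls kept its side of the threshold in all 18 fits that left out 1 library.

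Rps9 was called in both directions against day 0. It sits with Rps3 at the channel through which the messenger RNA enters (chr7:3706979-3710719). It had 1913, 1674, 1805 and 1211 CPM on day 0, 2423, 2442, 2396 and 3645 on day 7, 1635, 1479 and 2364 on day 14, 772, 1195, 909 and 1073 on day 21 and 1755, 1507 and 1774 on day 28. Day 7 libraries lay above and day 21 libraries below all those of day 0. The fold change was 0.72 ± 0.21 (SE, adjusted p = 0.0166) on day 7, -0.74 ± 0.21 (SE, adjusted p = 0.0294) on day 21 and -1.47 ± 0.22 (SE, adjusted p = 0.000142) between day 7 and day 21, where it was 0.362 times the day 7 level. Of the fits that left out 1 library, 2 of the 18 lost the first call (adjusted p up to 0.0784, without day 0 replicate 4), 5 of the 18 the second (up to 0.109, without day 21 replicate 1) and 0 the last.

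Rps6, Rps3 and Rps25 were called on day 21 and not on day 7. Rps6, the substrate of the S6 kinases downstream of mTORC1 (chr4:86748406-86775674), had 1279, 1335, 1178 and 1389.7 CPM on day 0, 1713, 1472, 1469 and 1421 on day 7 and 718, 716, 694 and 824 on day 21. All day 7 libraries lay just above those of day 0, with a fold change of 0.23 ± 0.18 (SE, adjusted p = 0.45), and all day 21 libraries lay far below, with -0.81 ± 0.19 (SE, adjusted p = 0.00635). Rps3, at the entry channel (chr7:99098784-99132945), had 1189.6, 1129.7, 1049 and 1186 CPM on day 0, 1264, 1267, 1269.8 and 1807 on day 7 and 668, 585, 697 and 724 on day 21, with -0.77 ± 0.19 (SE, adjusted p = 0.0123) on day 21. Day 7 replicate 4 stood far above the other 3 of its day, and days 0 and 21 did not overlap. Rps25, a head protein studied for initiation on viral RNAs, had day means of 1177 ± 165, 1247 ± 129 and 757 ± 74.2 CPM and a day 21 fold change of -0.64 ± 0.20 (SE, adjusted p = 0.0427), lost in 6 of the 18 fits without 1 library. For Rps4x, an X-linked gene with a Y-linked counterpart in humans, the day 21 value was -0.57 ± 0.18 (SE, adjusted p = 0.053) against day 0 and -0.75 ± 0.19 (SE, adjusted p = 0.0115) against day 7. Rps27a, made as a fusion with ubiquitin, had 0.68 ± 0.18 (SE, adjusted p = 0.00649) on day 7 and -0.01 ± 0.18 (SE, adjusted p = 0.99) on day 21 against day 0.

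Rps27 and Rps21 were close to their day 0 level on day 7. Rps27, a zinc finger protein (chr3:90119819-90120977), had 2026, 1836, 1701 and 1608 CPM on day 0, 1642, 1822, 1579 and 2331 on day 7, 1886, 1592 and 2292 on day 14, 1534, 1875, 1489.9 and 1726 on day 21 and 1912, 1651 and 1857 on day 28. The 5 days overlapped, and none of the 9 comparisons passed the test, the fold change on day 21 against day 7 being -0.15 ± 0.19 (SE, adjusted p = 0.721). Rps21 (chr2:179899114-179900249), a small protein of the subunit, had 1906, 1977, 2297 and 1873 CPM on day 0, 1747, 1626, 1686 and 2105 on day 7 and 1177, 1703, 1115 and 1282 on day 21. Its day 7 and day 0 libraries overlapped at -0.17 ± 0.19 (SE, adjusted p = 0.618), the lowest fold change of the 75 genes on that day, and on day 21 it was -0.61 ± 0.19 (SE, adjusted p = 0.0454), with all libraries below day 0 and the call lost in 7 of the 18 fits that left out 1 library.

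**Figure D3:**
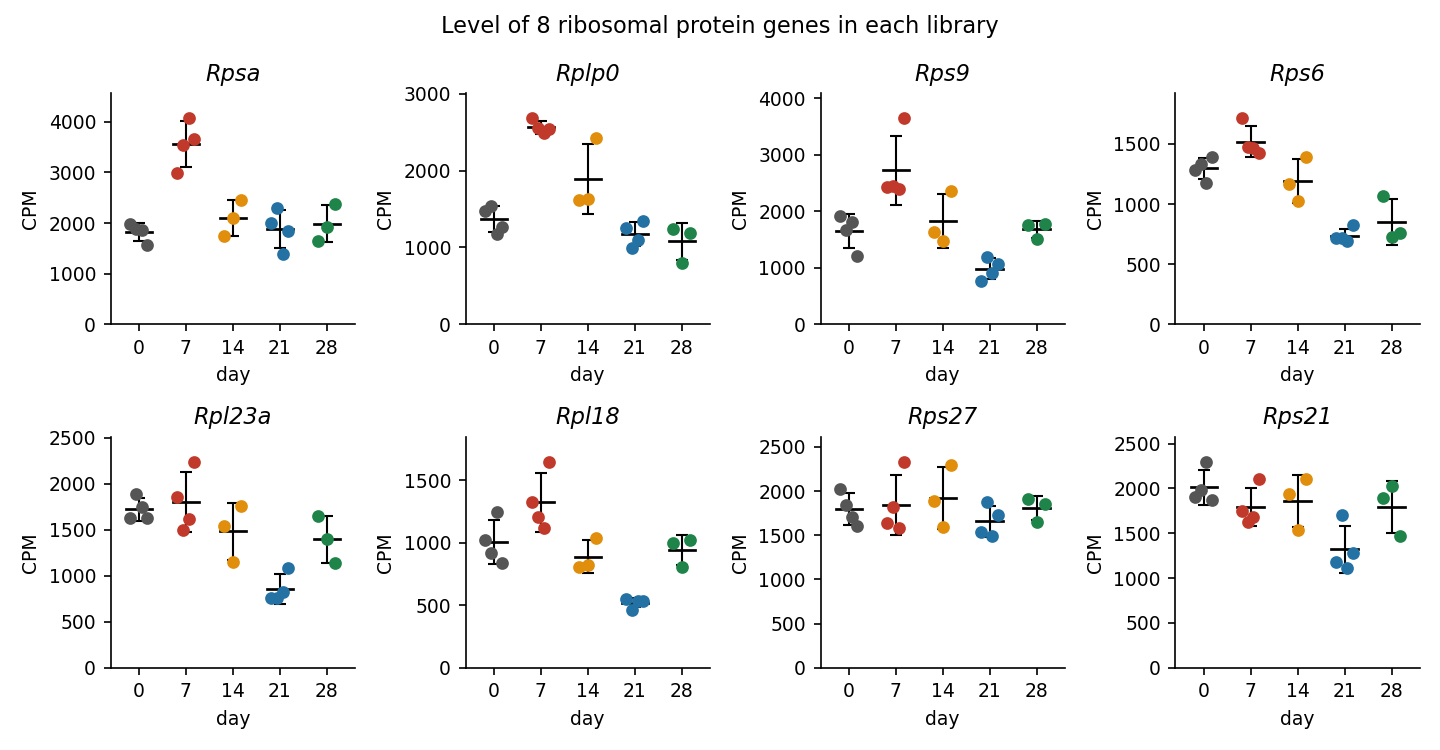
CPM of Rpsa, Rplp0, Rps9, Rps6, Rpl23a, Rpl18, Rps27 and Rps21 in each library by day after injury, each axis from 0. Points are libraries, lines are means and bars are SD. Rpsa and Rplp0 are set apart on day 7, Rpl23a and Rpl18 on day 21, Rps9 on both, and the 5 days of Rps27 overlap.

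In the large subunit, genes of the peptidyl transferase centre and the exit tunnel differed in when they were called. Rpl3, which reaches into the peptidyl transferase centre (chr15:79961825-79976069), had 1059, 1230.1, 1194 and 966 CPM on day 0, 1747, 1673, 1786 and 1526 on day 7 and 819, 1253, 756 and 931 on day 21. Day 7 libraries lay above those of days 0 and 21, and the fold change was 0.60 ± 0.20 (SE, adjusted p = 0.0363) on day 7, lost in 9 of the 18 fits without 1 library (adjusted p = 0.116 without day 7 replicate 1). Rpl4, which lines the tunnel (chr9:64080618-64086351), had 934, 1227, 1303 and 1442 CPM on day 0, 1353, 1130.3, 1074 and 1493 on day 7 and 688, 585, 659 and 651 on day 21. Its first 2 time points overlapped with 0.04 ± 0.21 (SE, adjusted p = 0.922), and day 21 lay below both with -0.92 ± 0.21 (SE, adjusted p = 0.00587) against day 0. Rpl39, a short protein inside the tunnel, X-linked (chrX:36345092-36349130), had 1292, 1260.0, 1249 and 1112 CPM on day 0, 2190.2, 1840.1, 1820.0 and 2139 on day 7, 1721, 1474 and 2337 on day 14 and 727, 1169, 893 and 1003 on day 21, with 0.70 ± 0.20 (SE, adjusted p = 0.0131) on day 7 and -1.08 ± 0.20 (SE, adjusted p = 0.00134) between day 7 and day 21. The day 14 libraries overlapped those of day 7 and lay above day 0, at 0.59 ± 0.21 (SE, adjusted p = 0.116).

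Rpl23a and Rpl18 had the lowest p of the 75 genes on day 21 against day 0. Rpl23a, at the mouth of the tunnel where targeting factors dock (chr11:78071753-78074425), had 1623, 1891, 1744 and 1626 CPM on day 0, 1855, 1497, 1621 and 2239 on day 7, 1545, 1151 and 1756 on day 14, 755, 755, 822 and 1089 on day 21 and 1655, 1397 and 1141 on day 28. All day 21 libraries lay below the 14 others, at -1.01 ± 0.20 (SE, adjusted p = 0.00241) against day 0, and day 7 overlapped day 0 at 0.07 ± 0.20 (SE, adjusted p = 0.872). Rpl18, a large subunit protein (chr7:45364823-45370260), had 1026, 920.5, 1248 and 836 CPM on day 0, 1327, 1204, 1116 and 1649.9 on day 7, 549, 466, 533 and 537 on day 21 and 998, 805 and 1026 on day 28. Again the day 21 libraries lay below all others, at -0.95 ± 0.20 (SE, adjusted p = 0.00291) against day 0 and -1.34 ± 0.20 (SE, adjusted p = 0.000131) against day 7, while day 28 was 0.85 ± 0.21 (SE, adjusted p = 0.053) against day 21 and just missed the threshold. Rpl14 (chr9:120400489-120403866), also of the large subunit, had 853, 911, 818 and 888 CPM on day 0, 862, 850.0, 732 and 781 on day 7 and 447, 337, 475 and 593 on day 21. It was -0.11 ± 0.20 (SE, adjusted p = 0.785) on day 7 and -0.91 ± 0.20 (SE, adjusted p = 0.00506) on day 21, when every library lay below both other days. Rpl21, of the large subunit too, was -0.14 ± 0.18 (SE, adjusted p = 0.647) on day 7 and -0.72 ± 0.18 (SE, adjusted p = 0.0113) on day 21, with means of 2188 ± 100.4 CPM on day 0 and 1333 ± 209.6 on day 21.

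Genes of the 5S particle and some with roles studied outside the ribosome were also compared. Rpl5 and Rpl11 bind the 5S ribosomal RNA and, when free of ribosomes, the p53 regulator Mdm2. Rpl11 (chr4:135753967-135780818) had 1249, 1222, 1019.5 and 1112 CPM on day 0, 1647, 1605, 1690.5 and 1745 on day 7 and 1041, 1344, 891 and 1201 on day 21, with 0.54 ± 0.18 (SE, adjusted p = 0.0327) on day 7, a call lost in 9 of the 18 fits without 1 library (adjusted p up to 0.0955, without day 7 replicate 1). Its partner Rpl5 (chr5:108048367-108058471) had 1306, 1387, 1359 and 1244 CPM on day 0, 1588, 1544, 1511 and 1789 on day 7 and 814, 1068, 904 and 1026 on day 21, at 0.28 ± 0.17 (SE, adjusted p = 0.301) on day 7 and -0.76 ± 0.17 (SE, adjusted p = 0.00723) between day 7 and day 21. Day 7 libraries of both genes lay above all day 0 libraries, and those of Rpl5 on day 21 lay below all 14 other libraries. Rpl13a, a part of a complex that silences translation in macrophages when it leaves the ribosome, had 3073, 2825, 3033 and 2269 CPM on day 0, 3513, 3738, 4969.7 and 4630.1 on day 7 and 2297, 4178, 2189 and 2783 on day 21. It was 0.59 ± 0.21 (SE, adjusted p = 0.0488) on day 7, lost in 16 of the 18 fits without 1 library (adjusted p up to 0.188, without day 7 replicate 3), and -0.56 ± 0.21 (SE, adjusted p = 0.114) between day 7 and day 21.

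Rpl32, a large subunit protein, had 853, 911, 870.5 and 799 CPM on day 0, 1581, 1529, 1501 and 1564 on day 7 and 783, 690.2, 748 and 882 on day 21, and its 4 day 7 libraries, close to each other, lay above the 14 others, with a fold change of 0.85 ± 0.19 (SE, adjusted p = 0.00168). Rpl38, known from mice with skeletal defects for its part in the translation of Hox transcripts, was 0.61 ± 0.17 (SE, adjusted p = 0.0113) on day 7 and -0.79 ± 0.17 (SE, adjusted p = 0.00485) between day 7 and day 21. Rpl10a, studied for the transcripts that ribosomes with it prefer, was 0.47 ± 0.19 (SE, adjusted p = 0.0821) on day 7 and -0.95 ± 0.21 (SE, adjusted p = 0.00325) between day 7 and day 28. Rpl22, which has the paralogue Rpl22l1, was 0.60 ± 0.20 (SE, adjusted p = 0.0327) on day 7, lost in 9 of the 18 fits without 1 library (adjusted p up to 0.109, without day 0 replicate 4), and -1.13 ± 0.20 (SE, adjusted p = 0.000913) between day 7 and day 21. Rpl41, the shortest protein of the ribosome, was 0.57 ± 0.19 (SE, adjusted p = 0.0313) on day 7, lost in 7 of the 18 such fits (up to 0.12, without day 7 replicate 3), and 0.08 ± 0.19 (SE, adjusted p = 0.858) on day 21.

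Whether single genes changed their share of the ribosomal protein counts was tested with the library size set to the summed counts of the 75 genes. This scaling removes any change common to the 75 genes, so it cannot show one. It moved the median of all genes to -0.34 on day 7 and 0.47 on day 21 against day 0. The percentages of all genes given next include that shift. On day 7 against day 0, 4 of the 75 passed, where 22.9% of all genes did in either direction. Rpsa was 0.55 ± 0.19 (SE, adjusted p = 0.0329) and Rps15a 0.48 ± 0.17 (SE, adjusted p = 0.0486), both higher in share, while Rps21 was -0.59 ± 0.17 (SE, adjusted p = 0.0139) and Rpl21 -0.57 ± 0.16 (SE, adjusted p = 0.0111), both lower. Between days 0 and 21 (12.2% of all genes), 2 passed, Rpl23a at -0.60 ± 0.18 (SE, adjusted p = 0.0286) and Rpl36a at -1.09 ± 0.34 (SE, adjusted p = 0.0371). The row of Rpl36a holds fewer counts than that of a near-identical copy described below. Its share with the copy added was not tested. Between days 7 and 21 (24.8% of all genes), 3 passed, and Rps27 was 0.67 ± 0.17 (SE, adjusted p = 0.00468), Rps9 -0.64 ± 0.18 (SE, adjusted p = 0.0138) and Rpl18 -0.50 ± 0.19 (SE, adjusted p = 0.0489). Between days 7 and 28 (21.8% of all genes), 4 passed, and Rps27 was 0.59 ± 0.18 (SE, adjusted p = 0.0198), Rps21 0.61 ± 0.18 (SE, adjusted p = 0.0189), Rpl21 0.62 ± 0.17 (SE, adjusted p = 0.0108) and Rplp0 -0.65 ± 0.20 (SE, adjusted p = 0.0234).

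Because the reads come from 3′ ends, a gene whose end is nearly the same as that of a processed pseudogene can lose its reads to the copy's row. Over the last 400 transcript bases, 30 of the 75 genes had a copy that was at least 98% identical over 75 bases or more and had a count, 9 had one with at least 1000 counts, and in 4 the copy held more counts than the gene. Rps2, at the decoding side of the small subunit (chr17:24937080-24940904), had 1455 counts and its copy Rps2-ps10, at 99.7% identity over 351 bases, had 12008. The gene's own row had 147, 192, 109 and 192 CPM on day 0, 249, 176, 128 and 102 on day 7 and 97, 70.6, 97 and 93.1 on day 21, overlapping between days 0 and 7 at 0.03 ± 0.28 (SE, adjusted p = 0.962). With both rows added, the level was 1157, 1307, 1093 and 1173 CPM on day 0, 1838, 1797, 1792 and 1732 on day 7 and 837, 751, 755 and 840.0 on day 21, and the 3 days no longer overlapped. The fold change was then 0.60 ± 0.17 (SE, adjusted p = 0.0128) on day 7 and -0.57 ± 0.17 (SE, adjusted p = 0.0352) on day 21.

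Rpl36a, X-linked and on its own row the gene with the largest decrease of the 75 on day 21, lost that call. Its own row (1134 counts, chrX:133486372-133488901) had 110.2, 186, 116 and 93.2 CPM on day 0 and 47.3, 28.3, 36.2 and 67.5 on day 21, not overlapping, with -1.50 ± 0.36 (SE, adjusted p = 0.00991). Added to its copy Rpl36a-ps1 (8730 counts, 98.8% identity over 400 bases), it had 651, 975, 997 and 853 CPM on day 0 and 491, 827, 497 and 675 on day 21, which overlapped, with -0.48 ± 0.21 (SE, adjusted p = 0.16). Against day 7 the merged value on day 21 was -0.91 ± 0.21 (SE, adjusted p = 0.00679). Rpl10, the gene that fell short of the minimum and that helps to join the subunits, had 60 counts beside 18444 on Rpl10-ps3, which is identical over the last 400 bases. Merged, it had 1545, 2029, 1911 and 2155 CPM on day 0, 1655, 1503 and 1685 in day 7 replicates 2, 3 and 4 below a higher replicate 1, and 1546, 1037, 1375 and 1619 on day 21, overlapping throughout, at -0.17 ± 0.22 (SE, adjusted p = 0.666) on day 7 and -0.45 ± 0.22 (SE, adjusted p = 0.216) on day 21. For Rpl9 with Rpl9-ps6 the merged fold change was 0.33 ± 0.17 (SE, adjusted p = 0.212) on day 7, for Rpl36 with Rpl36-ps12 0.07 ± 0.20 (SE, adjusted p = 0.855), and for Rps26 with Rps26-ps1 0.51 ± 0.20 (SE, adjusted p = 0.0784), where the row of Rps26 alone had passed at 0.62 ± 0.19 (SE, adjusted p = 0.0223). Values of genes with such copies are therefore uncertain as levels of the gene alone.

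**Figure D4:**
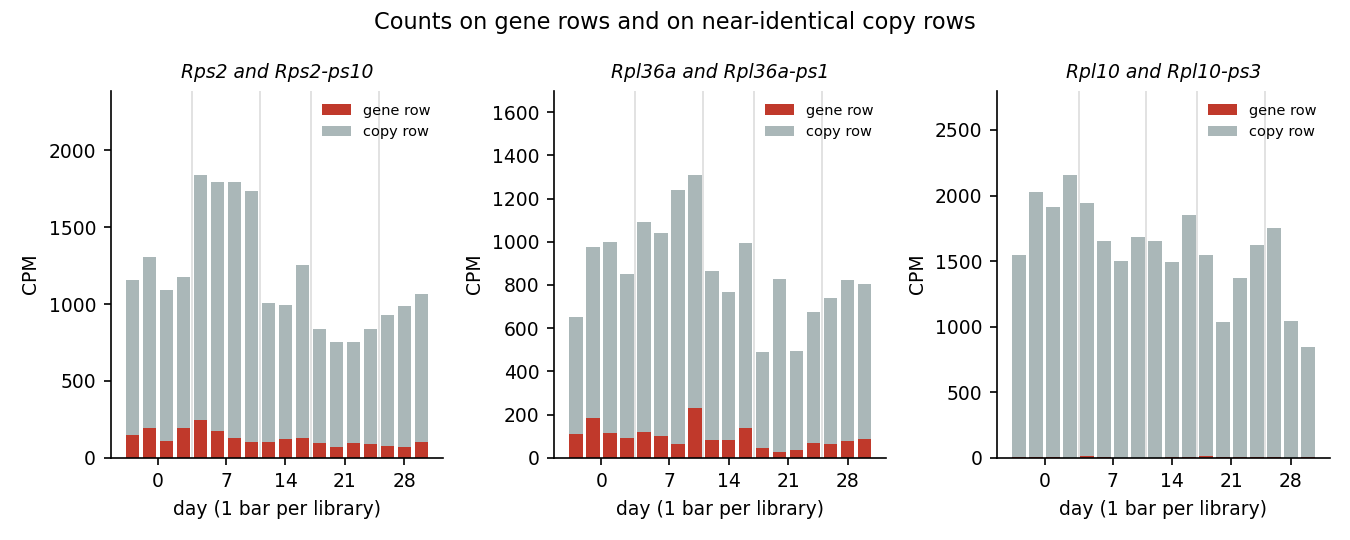
CPM on the row of the gene (red) and on the row of its near-identical copy (grey), stacked, for Rps2, Rpl36a and Rpl10 in each library, with bars grouped by day after injury and axes from 0. The gene's row holds 10.8% of the counts of the Rps2 pair, 11.5% of the Rpl36a pair and 0.324% of the Rpl10 pair, and the stacked bars of the Rps2 pair are highest on day 7.

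Genes with and without the C/T run at the start had nearby medians. The 23 genes with a run of at least 8 had a median of 0.43 on day 7 against day 0 and -0.42 on day 21, and the 32 genes with a window but no such run had 0.36 and -0.46. Across the 18 libraries, log2 CPM of single genes were correlated with the summed CPM of the other members, with a median Pearson r of 0.84 (0.39 for Rpl28 to 0.98). Among the 3544 genes outside the group with a mean of at least 50 CPM, the median r with the sum was 0.02. These r describe 18 libraries of 5 days that share their depth and composition. Of those 3544 genes, the ones most like the sum were Rps2-ps10 (r = 0.94), Fau (0.92), Rpl9-ps6 (0.90), Eef1g (0.90) and Eef1b2 (0.89).

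Ribosomal proteins and paralogues with other symbols were compared in the same fit. Of 9 tested, 2 were called higher on day 7 against day 0 (11.3% of all genes), 2 lower on day 21 against day 0 (2.93% of all) and 6 lower on day 21 against day 7 (3.23% of all), with medians of 0.40, -0.32 and -1.01. Rack1, the scaffold on the small subunit's head, had 726 ± 104, 1276 ± 37.2 and 582 ± 85.6 CPM on days 0, 7 and 21 (SD, n = 4) and was 0.81 ± 0.20 (SE, adjusted p = 0.00438) on day 7. Rpl22l1, the paralogue of Rpl22, was 0.83 ± 0.23 (SE, adjusted p = 0.0124) on day 7. Rps3a1, which carries the name of the small subunit protein eS1, was 0.04 ± 0.18 (SE, adjusted p = 0.907) on day 7 and -0.83 ± 0.18 (SE, adjusted p = 0.00393) on day 21, and Rpl36al, the paralogue of Rpl36a, was -0.72 ± 0.21 (SE, adjusted p = 0.0332) on day 21. Fau, made as a fusion of a ubiquitin-like protein with Rps30, was 0.40 ± 0.20 (SE, adjusted p = 0.19) on day 7 and -0.89 ± 0.20 (SE, adjusted p = 0.0066) between day 7 and day 21. Rps27l, the paralogue of Rps27, was 0.49 ± 0.27 (SE, adjusted p = 0.23) on day 7 and -1.01 ± 0.28 (SE, adjusted p = 0.0229) between day 7 and day 21.

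Factors that work with the ribosome were set beside it. Of all genes, 11.3% were called higher and 8.53% lower on day 7 against day 0, and 4.03% higher and 3.23% lower on day 21 against day 7. Of 9 elongation genes, 2 were called higher on day 7 against day 0 and 5 lower on day 21 against day 7, with medians of 0.24 and -0.75. The 2 were Eef1g, a subunit of the factor that recharges Eef1a (0.83 ± 0.22 (SE, adjusted p = 0.00902)), and Eef1b2, its exchange subunit (0.80 ± 0.24 (SE, adjusted p = 0.02)). Of 29 initiation genes, 2 were higher and 2 lower on day 7, shares below those of all genes, and 1 was higher and 6 lower on day 21 against day 7, with medians of 0.23 and -0.58. Pabpc1, the poly(A) binding protein, rose from 287 ± 43.7 to 741 ± 60.2 CPM on day 7, 1.37 ± 0.22 (SE, adjusted p = 5.11e-05), and Eif4a1, the helicase of the cap complex, from 442 ± 57.7 to 1039.8 ± 174 CPM, 1.24 ± 0.23 (SE, adjusted p = 0.00035). Of 16 genes of translation control, 1 was higher and 2 lower on day 7, near the shares of all genes, with a median of -0.03. Eif4ebp2, an inhibitor of cap binding, was -1.12 ± 0.34 (SE, adjusted p = 0.0191), and Myc, a transcription factor of growth with 223 counts in all, rose from 5.17 ± 9.48 to 54.5 ± 16.3 CPM with 3.40 ± 0.99 (SE, adjusted p = 0.0157).

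Genes that build ribosomes had a median of 0.42 on day 7 against day 0 over 44 tested, of which 5 were called higher, a share close to the 11.3% of all genes, and 0 lower. Npm1, a nucleolar chaperone, was 0.98 ± 0.21 (SE, adjusted p = 0.00161) and Nhp2, a part of the particles that modify ribosomal RNA, was 1.53 ± 0.40 (SE, adjusted p = 0.00683). Between days 7 and 21, 4 of the 44 were called lower (3.23% of all genes) and 0 higher, and on day 28 against day 7, 7 (8.05% of all genes) and 0. Of the 78 genes of the mitochondrial ribosome, 2 were called higher on day 7 against day 0, where 11.3% of all genes were (Mrpl10 at 1.28 ± 0.42 (SE, adjusted p = 0.0333) and Mrpl52 at 0.86 ± 0.27 (SE, adjusted p = 0.0237)), 2 lower on day 21 against day 0 (2.93% of all genes) and 1 lower on day 21 against day 7 (3.23% of all), with medians of 0.12, -0.43 and -0.59. The lists were not tested against each other.

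**Figure D5:**
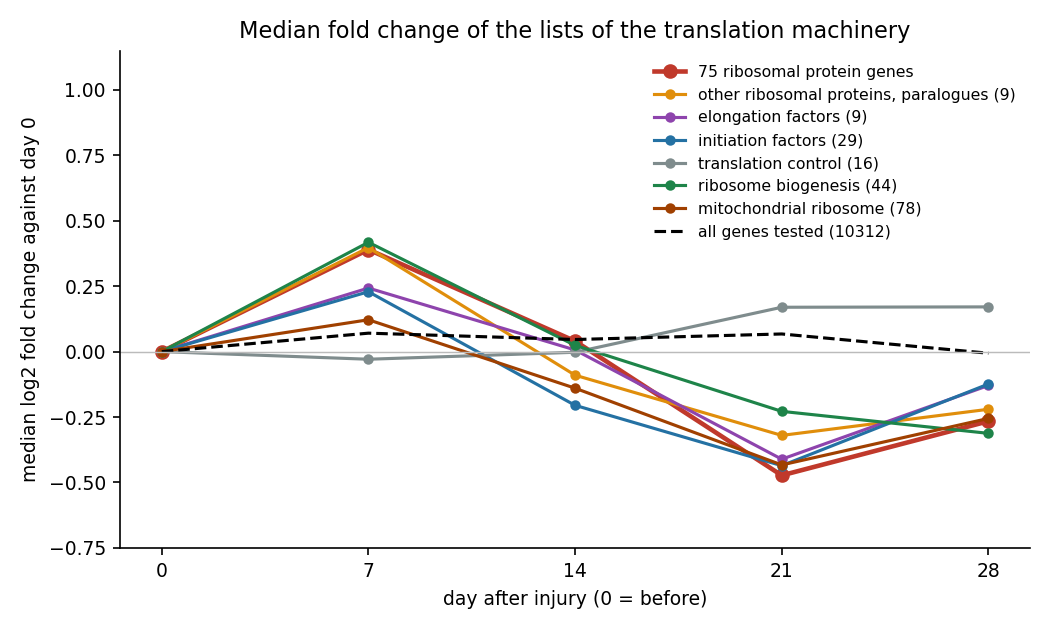
Median log2 fold change against day 0 of the 75 ribosomal protein genes, of 6 lists of other genes of the translation machinery (number tested in parentheses) and of all 10312 genes tested, by day after injury. The 75 genes are at 0.39 on day 7 and -0.47 on day 21, while the list of translation control stays between -0.03 and 0.17.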

How the data were processed

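Before quantification with Salmon 1.9.0 (mm39), the authors used molecular identifiers to drop PCR copies and cropped low-quality ends. The deposited values are estimated counts of genes, given as integers. The annotation release and strand use are not given in the sources used here, and a deposited table of normalised values was not used. Counts of 18 libraries (440675 to 878310 each) were fitted with edgeR 4.0.16 in R 4.3.3 (filterByExpr, TMM, quasi-likelihood test, day as the only term), at a threshold of 0.05 after Benjamini-Hochberg adjustment across the 10312 genes tested. Precision is limited by the 3 or 4 libraries per day. SE is the fold change divided by the root of F. DESeq2 1.42.0 was an alternative, as were other scalings, filters, thresholds, libraries in the fit, a replicate block, a mouse block (limma 3.58.1) and each library left out. The mouse block used limma in place of edgeR, so it changed the test as well. The steps were tested on simulated data. Copies were found with blastn 2.17.0 on GENCODE transcripts, and merging their counts with the gene's was chosen after seeing the data. Coordinates are GENCODE M39 genes on GRCm39. C/T runs and motifs were searched with Python 3.11.15 in RefSeq windows, and of several windows of a gene the one with the longest run is shown.

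For 33 pairs of libraries sharing a replicate number, residuals correlated at a median of -0.01 (-0.13 to 0.20). For the 3 pairs sharing a mouse number the median was 0.04 (-0.01 to 0.06). Some libraries of days 0 and 21 share both numbers, but most of the 33 pairs do not, and pairs of the same mouse are few. These correlations therefore cannot settle whether libraries are paired. Members and lists were chosen with earlier results of these data known. Named genes are, per comparison, up to 3 members with the smallest p in each direction, members with a set role, those of highest and lowest mean level, ribosomal proteins with other symbols, and from each other list the 2 with the smallest p on day 7. Of these, the ones printed were chosen after their values were seen. Some genes that the rule names are not reported here.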

Additional observations from a re-analysis of the deposited data

Results flagged for a closer look

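In groups of 4 libraries, 114 groups of the named genes were looked at for a library far from the other 3, and 6 were found, where chance gives about 1 in 20. On day 7, replicate 4 was the highest library for Rplp1 (6075 CPM, the others 4512 to 4659), Rplp2 (5429, the others 3303 to 3451), Rps3 (1807, the others 1264 to 1269.8) and Rps9 (3645, the others 2396 to 2442). The same library had the highest summed CPM of the 75 genes. Day 21 replicate 2 was the lowest for Rps2 (70.6 CPM, the others 93.1 to 97.0), and day 0 replicate 2 the highest for Rpl21 (2338 CPM, the others 2129 to 2147).

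Rps9 was called higher on day 7 and lower on day 21 against day 0. On day 21 against day 7 its log2 fold change was -1.47, with every day 21 library below every day 7 library (adjusted p = 0.000142 by edgeR). That comparison uses the same libraries as both calls, so its direction follows from them and it is no separate support. It called 62 of the 75 genes lower.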

How the results depend on the processing

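With 1 library left out, the median over the 75 genes changed its sign in 1 of 9 comparisons, day 14 against day 0 (0.04), which ranged from -0.13, without day 14 replicate 3, to 0.10. The count of genes called on day 7 against day 0 (22) was 34 with DESeq2, 13 without a filter, 10 at a threshold of 0.01, 4 with the library size set to the members, and 12 to 22 with 1 library left out. For day 21 against day 0 (17) it was 28 with DESeq2, 27 with the mouse block, 28 at a threshold of 0.1, 11 without a filter, 6 at 0.01, 2 with the members as library size, and 10 to 20 with 1 library left out. For day 21 against day 7 (62) it was 39 at 0.01, 3 with the members as library size, and 45 to 61 with 1 library left out. For day 28 against day 7 (41) it was 17 with only the 2 days in the fit, 20 at 0.01, 4 with the members as library size, and 18 to 41 with 1 library left out. Counts with the members as library size are of genes that changed their share among the 75. That scaling removes a change common to them, so the lower counts were fixed in advance.

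Where edgeR called 0, the count on day 14 against day 0 was 2 with DESeq2, 1 with the mouse block and 1 at 0.1. For day 28 against day 0 it was 2 with DESeq2 and 0 to 2 with 1 library left out. On day 14 against day 7 it was 12 with DESeq2, 1 with copies merged, 2 with the mouse block and 2 at 0.1. On day 21 against day 14 it was 7 with DESeq2. For day 28 against day 21 it was 8 with DESeq2, 1 with RLE factors, 1 with TMM without the members, 2 with the mouse block, 2 with no normalization factor, 2 with a robust dispersion, 2 at 0.1, and 0 to 2 with 1 library left out. The median over the 75 genes was -0.49 to -0.27 on day 14 against day 7 and -0.56 to -0.31 on day 21 against day 14 with 1 library left out. The summed CPM of day 0 (94945) was 100613 with rows named as pseudogenes added.

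With the replicate number as a block, the counts were 20, 13, 55 and 32 on day 7 against day 0, day 21 against day 0, day 21 against day 7 and day 28 against day 7, and 0 in the other 5 comparisons, so the block moved no count by over 1.5 times. The limma fit with the mouse block moved the median of all genes by up to -0.15 (day 28 against day 7, which share no mouse number). Of the calls, 10 of 22, 7 of 17, 41 of 62 and 12 of 41 stood in every alternative apart from the scaling to the members and other thresholds. The cause of the other changes was not tested. Depth limits most the 3 members with the fewest counts, Rpl35 (1073), Rpl36a (1134) and Rps2 (1455), the last 2 of which have copies with more counts.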
